A study of Mus musculus with 20 samples.

Results

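The soleus was compared with the gastrocnemius of the same animals in 5 mice that moved freely, which gave 10 of the 20 arrays of the series. Arrays were taken by title as the 24 h control group of each muscle, and the labels state that arrays sharing a replicate number came from 1 animal, so each soleus was read against the gastrocnemius of its own mouse. The mice were male animals of the outbred ICR stock aged 6 months, and the labels name no gene change or drug. Another 5 such mice spent the same 24 h in hindlimb suspension (HLS), held by the tail with the hind limbs off the floor, and they are used here as further animals with the same pair of muscles, for comparisons within a scan day and for a test of whether the muscle difference changed.

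The soleus is a small postural muscle of the calf with many slow-twitch fibres, and the gastrocnemius beside it is used for pushing off and jumping and is mostly fast-twitch. Slow and fast fibres build the contractile apparatus from different genes for myosin, troponin and tropomyosin, and they differ in how quickly calcium is released and pumped back. Slow fibres burn fatty acids and lactate with oxygen, while fast fibres draw more on glycogen and glycolysis. RNA was taken from whole muscle, so fat cells, vessels, nerve and tendon contributed too, and fewer cells of a type cannot be told apart from less RNA per cell.

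Levels are log2 intensity relative to each array's 75th percentile, and a difference is soleus minus gastrocnemius with its standard error. It is taken over 5 animals, or fewer where a spot was left out. A gene passed at an adjusted p below 0.05 (limma with the animal as a block, two-sided, Benjamini-Hochberg over 25101 genes). By that rule 6715 genes, or 26.8%, differed: 2430 (9.68%) were higher in soleus and 4285 (17.1%) lower. At least 2-fold differences numbered 1076 (4.29%), 327 higher and 749 lower, and the arrays of the 2 muscles did not overlap for 5441 genes (21.7%). The split depended on the scaling. Higher calls were 36.19% of the calls at the 75th percentile, 48.84% after quantile normalization and 61.3% after scaling to the median, which moved the median gene from -0.05 to 0.02 and 0.10. Gene lists are therefore counted below over genes that passed in the same direction at the 75th percentile and after quantile normalization, which were 4544 genes (18.1%), 1803 higher (7.18%) and 2741 lower (10.9%). These shares are the background for every list count below, and some lists lay near them. A further limit comes from the E1A spike-in RNA that the labels name in each labelling reaction. It can serve as a scale only if its amount per reaction was equal, which was not tested. Relative to the 75th percentile it read 1.49 ± 0.04 (SD, n = 5) in soleus and 2.55 ± 0.08 (SD, n = 5) in gastrocnemius, a difference of -1.05 with exact paired permutation p = 0.0625, two-sided and the smallest that 5 animals allow. Scaling to the spike-ins would raise every soleus difference by that amount, 99.39% of its 22643 calls would be higher in soleus, and genes given below as lower by less than 1.05 would turn higher.

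Scan day moved with muscle. Every control gastrocnemius array was scanned on day 1 and every control soleus array on day 2, on other slides, so in these 10 arrays muscle and scan day cannot be told apart. On day 1 the spike-ins read 2.45 to 2.65 in the 5 control gastrocnemius arrays and 2.00 in the 1 suspended one. On day 2 they read 1.69 to 1.74 in the 4 suspended gastrocnemius arrays and 1.55 to 1.73 in the 3 suspended soleus arrays. Suspended animals offer a comparison inside day 2, given at the end. The labels fitted the muscles, as slow sarcomere genes were high on every soleus array and fast-fibre genes such as Mss51 and Actn3 on every gastrocnemius array. Correlations between arrays were 0.9729 to 0.9884 within soleus, 0.9721 to 0.9872 within gastrocnemius and 0.9507 to 0.9681 across, over all tested genes.

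**Figure D1:**
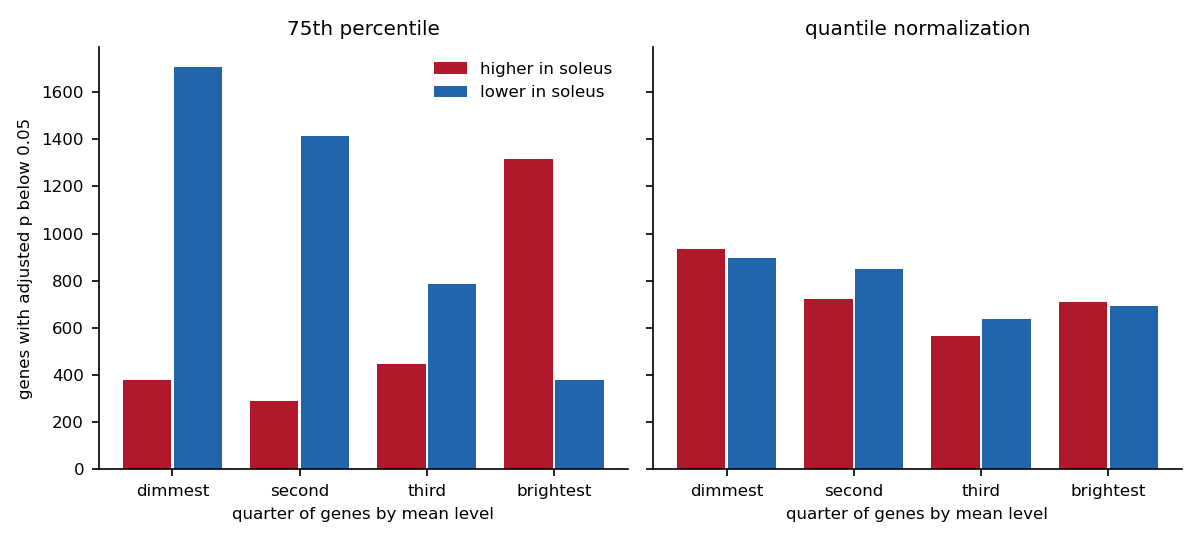
Genes higher and lower in soleus in 4 equal groups of genes ordered by mean level, with the number of genes at adjusted p below 0.05 on the y axis for the 75th-percentile scaling and for quantile normalization. In the dimmest group 378 genes were higher and 1707 lower at the 75th percentile against 935 and 895 after quantile normalization, and in the brightest group 1316 and 378 against 711 and 692.

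The slow sarcomere genes were the clearest difference. Of 14 measured members 11 were higher in soleus at the 75th percentile and 10 under both scalings, none was lower, and their median difference was 1.44 where that of all genes was -0.05. Tnni1, the slow troponin I that inhibits contraction at low calcium, read 6.98, 6.85, 7.34, 7.14 and 6.89 in soleus of animals 1 to 5 and 2.98, 2.95, 4.18, 3.28 and 3.04 in gastrocnemius. The muscles were far apart in every animal, and gastrocnemius 3 was the highest of its group. The difference was 3.76 ± 0.15 (adjusted p = 1.69e-05). Tpm3, the slow tropomyosin, read 5.69 to 5.88 in soleus and 1.57, 1.36, 2.64, 1.68 and 1.52 in gastrocnemius, a difference of 4.04 ± 0.17 (adjusted p = 1.74e-05), with gastrocnemius 3 again the highest. A dimmer Tpm3 probe gave 0.82. Tnnc1, the calcium-binding troponin C of slow and cardiac muscle, was higher by 3.88 ± 0.20 and Tnnt1, the slow troponin T, by 2.87 ± 0.19. The whole slow troponin complex was thus higher in soleus, with no overlap of arrays for any of its 3 genes.

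The promoter windows of these 3 troponin genes are shown because their transcripts moved together, and those of Mss51, Mstn and Myh4 because these were among the genes that were lower in soleus. Each window is the 250 bases before the RefSeq transcription start, 5′ to 3′ on the gene's strand, from RefSeq on GRCm38.p6, and for Tnni1 it is the first of 2 starts listed. Capitals mark matches, on either strand, to the E-box CAGCTG, the MCAT motif CATTCC, the MEF2 motif TAAAAATA and the TATA box TATAAA. The coordinates are chr1:135799171-135799420 (plus strand) for Tnni1, chr14:31208062-31208311 (plus) for Tnnc1, chr7:4515976-4516225 (minus) for Tnnt1, chr14:20496902-20497151 (minus) for Mss51, chr1:53061390-53061639 (plus) for Mstn and chr11:67237562-67237811 (plus) for Myh4.
Tnni1: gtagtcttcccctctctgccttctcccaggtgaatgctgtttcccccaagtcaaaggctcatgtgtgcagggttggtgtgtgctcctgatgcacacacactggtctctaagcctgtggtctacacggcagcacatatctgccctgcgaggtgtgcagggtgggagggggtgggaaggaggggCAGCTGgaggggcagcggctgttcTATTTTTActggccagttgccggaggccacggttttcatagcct
Tnnc1: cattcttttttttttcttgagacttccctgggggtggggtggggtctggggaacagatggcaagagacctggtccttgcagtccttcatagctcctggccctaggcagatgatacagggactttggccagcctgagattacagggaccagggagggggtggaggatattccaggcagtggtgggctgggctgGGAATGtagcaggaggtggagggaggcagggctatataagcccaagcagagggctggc
Tnnt1: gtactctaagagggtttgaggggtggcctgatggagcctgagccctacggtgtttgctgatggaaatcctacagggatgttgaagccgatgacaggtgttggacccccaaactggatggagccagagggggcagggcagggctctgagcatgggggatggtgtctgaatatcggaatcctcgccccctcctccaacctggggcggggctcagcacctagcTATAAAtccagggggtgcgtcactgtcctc
Mss51: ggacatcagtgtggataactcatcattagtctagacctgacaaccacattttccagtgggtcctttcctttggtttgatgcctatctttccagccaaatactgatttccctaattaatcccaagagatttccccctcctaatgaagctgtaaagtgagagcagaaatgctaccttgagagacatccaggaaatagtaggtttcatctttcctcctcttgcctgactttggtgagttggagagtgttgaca
Mstn: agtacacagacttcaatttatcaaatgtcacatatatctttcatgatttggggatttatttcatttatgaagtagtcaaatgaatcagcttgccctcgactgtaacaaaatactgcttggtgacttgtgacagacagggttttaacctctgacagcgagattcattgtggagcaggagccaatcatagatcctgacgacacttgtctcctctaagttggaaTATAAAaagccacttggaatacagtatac
Myh4: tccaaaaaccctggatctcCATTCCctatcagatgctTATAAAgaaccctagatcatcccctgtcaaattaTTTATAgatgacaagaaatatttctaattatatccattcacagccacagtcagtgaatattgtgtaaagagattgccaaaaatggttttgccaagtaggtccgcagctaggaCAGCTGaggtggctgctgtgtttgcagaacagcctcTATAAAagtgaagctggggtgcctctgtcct

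The Tnni1 window held an E-box beginning 68 bases before the start and a MEF2 match 44 bases before it on the opposite strand. The Tnnc1 window held an MCAT match at 58 bases, also on the opposite strand, and the Tnnt1 window a TATA box at 30 bases. Mstn had a TATA box at 29 bases. Myh4 had TATA boxes at 31 and 213 bases and, on the opposite strand, at 179, with an E-box at 67 and an MCAT match at 231, and Mss51 held none of the 4 motifs. Over all 32851 windows, which include genes that were not tested, the E-box was present in 13%, MCAT in 12.6%, MEF2 in 2.45% and the TATA box in 12.4%. The next sets were genes at least 2-fold apart that passed under both scalings. Windows of those higher in soleus (262 windows of 190 genes) held the motifs in 16.4%, 10.3%, 2.67% and 13.7%. Windows of those lower (424 windows of 334 genes) held them in 17.2%, 12.7%, 1.89% and 12.7%. The E-box share was thus slightly above that of all windows in both directions, and the other shares lay near it. A match describes letters only and is not a measured binding site. Of the 25101 tested genes 14715 had a window.

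Myosin genes separated less cleanly than troponins. Myh7, the slow myosin heavy chain, read 9.14, 9.06, 9.08, 9.43 and 8.88 in soleus and 7.51, 7.36, 8.11, 7.78 and 7.57 in gastrocnemius, a difference of 1.45 ± 0.15. It is among the brightest probes, and how fully such bright spots show a difference was not tested. Myh6, a close copy known mainly from the heart, read 5.97 to 7.57 in soleus and 3.12 to 4.93 in gastrocnemius, with a difference of 3.03 ± 0.30. Its probes may share signal with Myh7, so the gene behind that value is uncertain. The slow light chains were also higher, Myl2 by 2.68 ± 0.19 and Myl3 by 1.04 ± 0.12, with no overlap of arrays. A dimmer Myl3 probe gave 3.65. Among Z-disc and M-band members, Myoz2 was higher by 1.82 ± 0.20 and Myom3 by 1.43 ± 0.16. Myl6b, Mybpc1 and Csrp3 did not pass, at 0.13, 0.18 and 0.54, and Actn2 passed at the 75th percentile only, at 0.51.

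**Figure D2:**
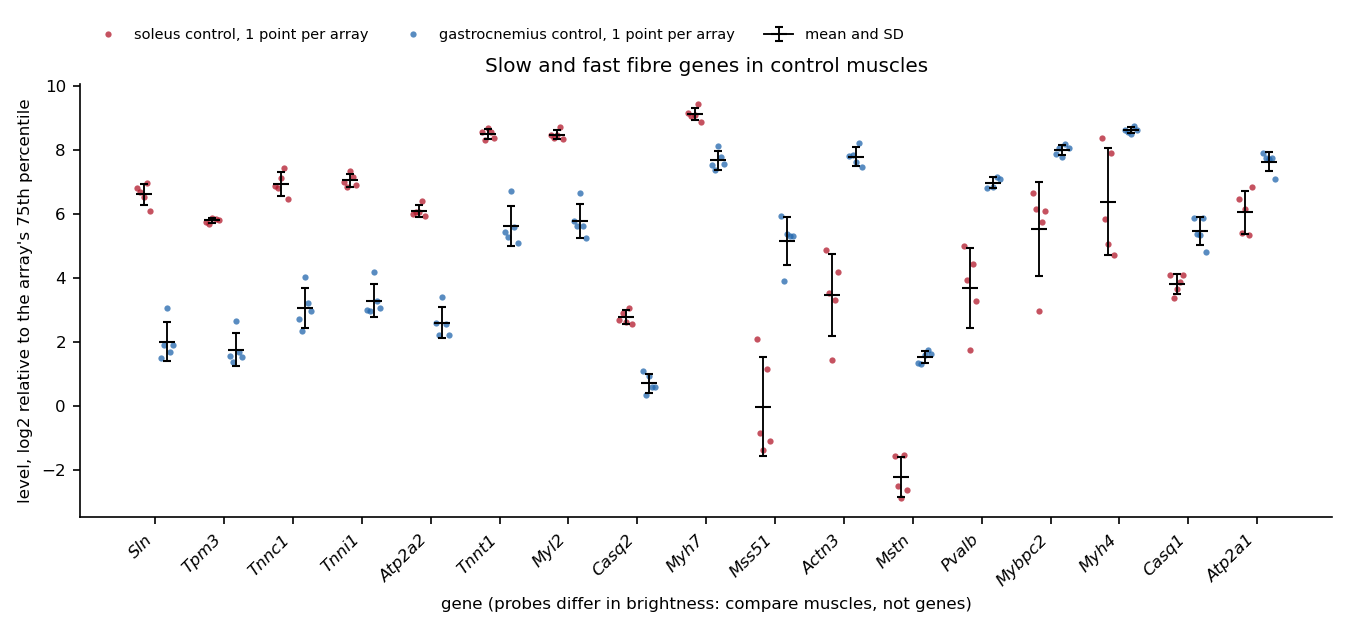
Level of slow and fast fibre genes on each control array, as log2 intensity relative to the array's 75th percentile, 1 point per array with soleus and gastrocnemius in different colours. Tnni1 lies between 6.85 and 7.34 in soleus and between 2.95 and 4.18 in gastrocnemius, and Myh4 spreads from 4.70 to 8.37 in soleus against 8.50 to 8.75 in gastrocnemius.

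Fast sarcomere genes did not mirror the slow ones. Of 15 measured, 7 were lower in soleus under both scalings and none was higher under both, and 6 of the 7 were also lower against the spike-ins. Actn3, the fast alpha-actinin of the Z-disc, read 4.88, 3.52, 1.44, 3.32 and 4.18 in soleus and 7.45 to 8.21 in gastrocnemius, lower by 4.32 on the log2 scale (SE 0.40, adjusted p = 0.000409). Mybpc2, fast myosin-binding protein C, read 6.65, 6.15, 2.97, 5.73 and 6.09 in soleus and 7.78 to 8.17 in gastrocnemius, a difference of -2.47 ± 0.42 (adjusted p = 0.00378). Myoz1, Myom2, Mylk2 and Tnnt3 were lower too, at -1.50, -1.21, -1.07 and -0.68. None of these 6 genes had overlapping arrays, but Tnnt3 no longer passed without animal 2 or 4 (adjusted p = 0.0699 and 0.0746).

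Myh4, the myosin of the fastest fibres (type IIB), varied widely from mouse to mouse. It read 8.37, 5.84, 5.04, 7.90 and 4.70 in soleus of animals 1 to 5 and 8.50 to 8.75 in gastrocnemius. Soleus 1 and 4 came close to the gastrocnemius and soleus 2, 3 and 5 were far below it, so the within-animal differences ran from -0.24 to -3.92. The mean was -2.24 ± 0.49 (adjusted p = 0.0103). Over animals 2, 3 and 5 alone, the ones with low soleus values, it was -3.37. That subset was not planned, and its larger difference follows from the choice of animals. Myh1 and Myh2, the other adult fast myosins, did not pass at 0.07 ± 0.16 and 0.36 ± 0.13. Tnni2, fast troponin I, did not pass at 0.35 ± 0.13, nor did Myoz3 (-0.22). After quantile normalization Myh2 and Tnni2 were at 0.07 and 0.01. Mylpf (-0.27, over 4 animals since soleus 5 had no value) and Tpm1 (-0.23) did not pass at the 75th percentile. After quantile normalization both passed as lower, at -0.48 and -0.45 (adjusted p = 0.0325 and 0.0204). Probes of Tpm1 ran from -0.89 to 0.33. Myl1 (0.49) and Tnnc2 (0.63) were higher at the 75th percentile but not after quantile normalization, with adjusted p = 0.0547 and 0.0625. Other probes of Myh1 read down to -1.78 and of Myl1 down to -1.42, so those values hold for the brightest probe only. Myh2, Tnni2 and Tnnc2 averaged 9.03, 9.11 and 9.24 in soleus, about as bright as Myh7 at 9.12. Mylpf and Tpm1 were bright too, at 8.21 and 8.18. For these genes as well, how fully such bright spots show a difference was not tested.

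Of 23 sarcomere genes shared by fibre types or made in development, 5 were higher and 4 lower under both scalings. Embryonic myosin Myh3 was higher by 1.56 ± 0.18 and Lmod2, which lengthens thin filaments, by 1.31 ± 0.14. Tmod1, the pointed-end cap of the thin filament, was lower at -2.04 ± 0.19. Cardiac actin Actc1 (-2.12 ± 0.59) and Mybph (-1.51 ± 0.35) also passed, although arrays of the 2 muscles overlapped for both. Actc1 had no value on gastrocnemius 3 and rests on 4 animals. Actc1 was at -1.22 without animal 2 and had adjusted p = 0.079 without animal 4.

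The genes of calcium handling divided by fibre isoform. Sln, sarcolipin, a small inhibitor of the calcium pump, had the largest higher value of all genes that passed with no overlap of arrays. It read 6.80, 6.69, 6.51, 6.95 and 6.10 in soleus and 1.50, 1.91, 3.04, 1.67 and 1.90 in gastrocnemius, with gastrocnemius 3 above the rest. The difference was 4.60 ± 0.25 (adjusted p = 5.7e-05), although a dimmer probe of the gene gave 0.52. Atp2a2, the slow calcium pump, read 5.92 to 6.39 in soleus and 2.21 to 3.40 in gastrocnemius, a difference of 3.49 ± 0.18, with other probes from 0.16 to 3.53. The slow store protein Casq2 was higher by 2.06 ± 0.17. Pln, phospholamban, which also restrains the pump, did not pass at 0.23 ± 0.13.

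In the other direction, 15 of 37 calcium genes were lower under both scalings against 4 higher, and 5 of the 15 were lower against the spike-ins too. Pvalb, parvalbumin, which buffers calcium in fast fibres, read 4.98, 3.94, 1.74, 4.43 and 3.28 in soleus and 6.81, 6.83, 7.16 and 7.08 in gastrocnemius 1, 3, 4 and 5. Its spot on gastrocnemius 2 was marked as uneven and left out, and the fitted difference was -3.36 ± 0.44. Atp2a1, the fast calcium pump, was lower at -1.59 ± 0.28, Casq1, the fast store protein, at -1.64 ± 0.19, and Cacng1, a subunit of the voltage sensor, at -1.69 ± 0.27. Camk2a, a calcium-dependent kinase, was lower at -2.04 ± 0.31, and at -0.42 by its other probe. All 5 had arrays that did not overlap between the muscles.

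**Figure D3:**
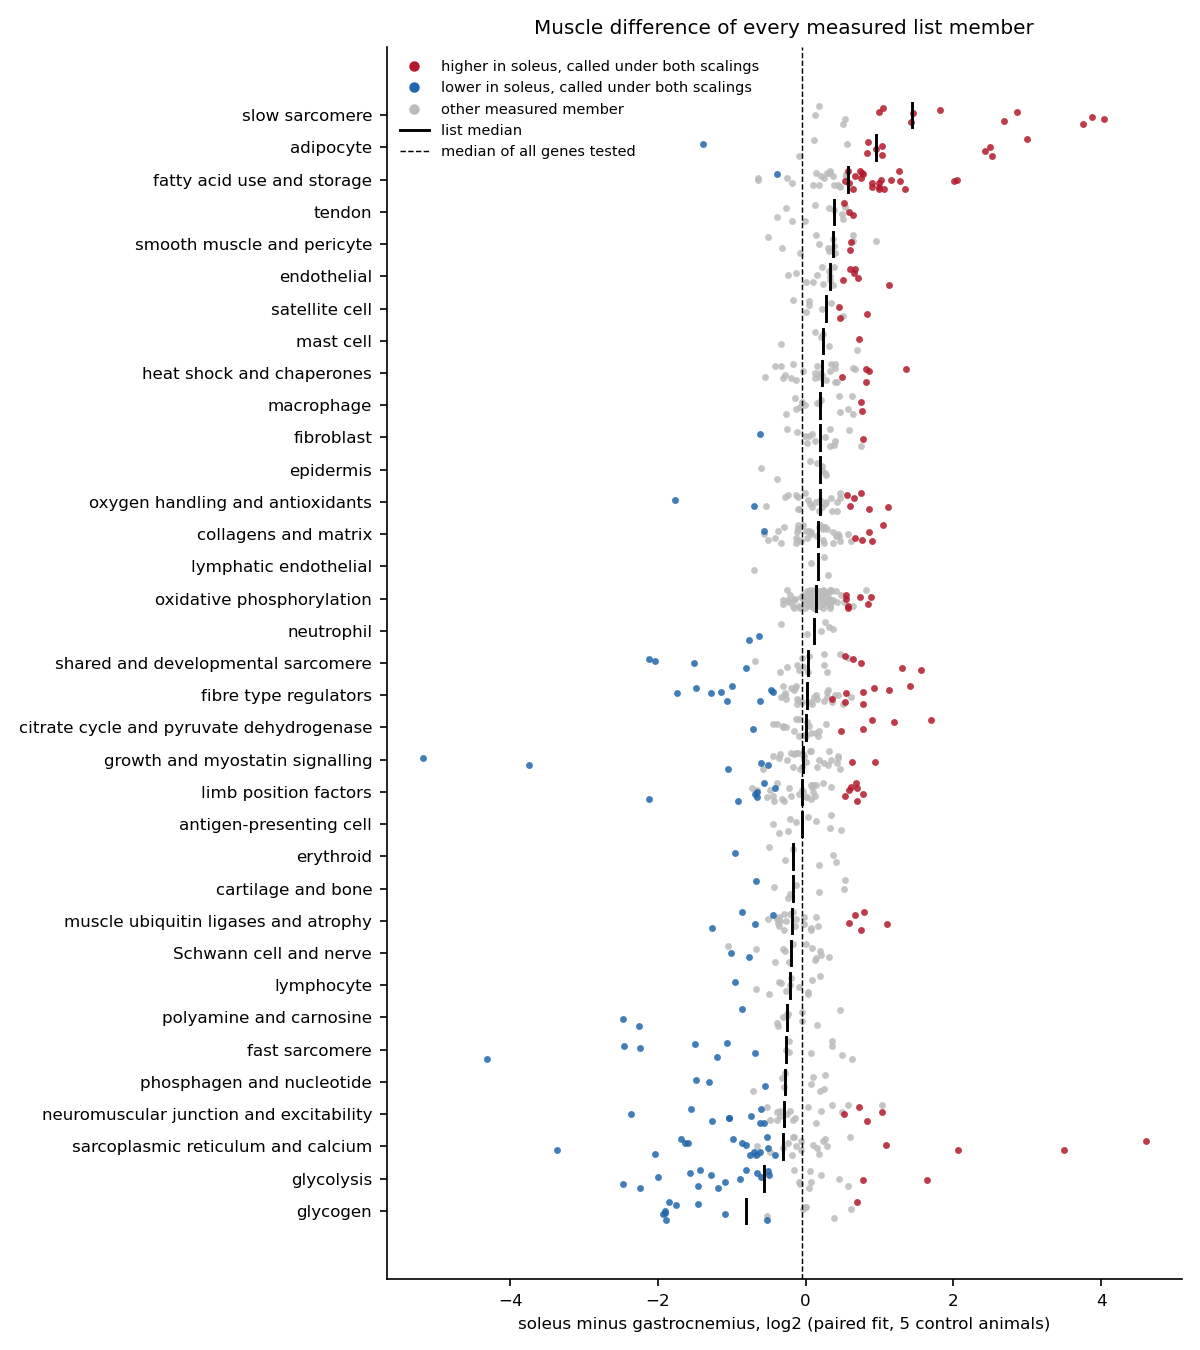
Log2 difference (soleus minus gastrocnemius) of every measured member of each gene list in the 5 control animals, 1 point per gene, coloured where the gene passed under both scalings, with a bar at the list's median and a dashed line at the median of all genes. The slow sarcomere list lies at 1.44 and the adipocyte list at 0.95, and the glycogen list at -0.81 and the glycolysis list at -0.56, against -0.05 for all genes.

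Glycolysis was lower in soleus in most of its genes. Of 26 measured, 15 were lower and 2 higher under both scalings, the median difference was -0.56, and 9 of the 15 were also lower against the spike-ins. Slc16a3 (MCT4), which exports lactate, read 3.36, 3.09, 2.34, 3.35 and 3.63 in soleus and 5.24, 5.54, 5.34, 5.57 and 5.32 in gastrocnemius. No soleus array reached the gastrocnemius range, and the difference was -2.25 ± 0.19 (adjusted p = 0.000278). Gpd1 and Gpd2, the cytosolic and mitochondrial enzymes of the glycerol phosphate shuttle, were lower at -2.00 ± 0.15 and -2.47 ± 0.15, the latter at -0.73 by its dimmer probe. Pkm (-1.57), Pgk1 (-1.46) and Tpi1 (-1.43), enzymes of the pathway itself, were lower as well. The 2 genes that were higher handle lactate in the other sense: Ldhb, the lactate dehydrogenase subunit of oxidative tissue, by 1.64 ± 0.13, and Slc16a1 (MCT1), known for lactate uptake, by 0.77 ± 0.15. Ldhb read 7.23 to 7.81 in soleus and 5.47 to 6.17 in gastrocnemius.

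Genes of glycogen breakdown followed the same direction. Of 16 glycogen genes 9 were lower and 1 higher under both scalings, the median was -0.81, and 8 of the 9 were lower against the spike-ins. Pygm, the muscle glycogen phosphorylase, read 2.74 to 3.79 in soleus and 4.46 to 5.60 in gastrocnemius, a difference of -1.93 ± 0.26. Phkg1 and Phka1, subunits of the kinase that activates it, were lower at -1.91 ± 0.15 and -1.90 ± 0.18. Gbe1, the branching enzyme of glycogen synthesis, was the 1 that was higher, by 0.70 ± 0.14. Of 12 phosphagen and nucleotide genes 3 were lower, namely Ampd1 (-1.48), Ckm (-1.31) and Ak1 (-0.54), and none was higher under both scalings. Ak1 did not pass without any 1 of animals 1 to 4, with adjusted p up to 0.117.

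Genes for fatty acid use and storage were higher in soleus in many cases. Of 41 measured, 22 were higher and 1 was lower under both scalings, with a median of 0.57. Cd36, which brings fatty acids across the membrane, read 4.03, 3.65, 3.85, 3.96 and 3.83 in soleus and 2.71, 2.33, 2.76, 2.46 and 2.37 in gastrocnemius, a difference of 1.34 ± 0.12. The carriers and enzymes around it moved likewise, with Fabp3 higher by 1.26, Lpl by 1.15, Plin5 by 1.28 and Cpt1b by 0.89. Dgat2, the last step of triglyceride synthesis, was higher by 2.05 ± 0.15 and Angptl4, an inhibitor of lipoprotein lipase, by 2.00 ± 0.21. The arrays of the muscles did not overlap for either, and other probes of Dgat2 ran down to 0.89. Several of these genes are also made by fat cells, whose markers were higher in soleus as given below, and their part in these values was not tested.

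Oxidative phosphorylation differed in few of its genes. Of 80 subunit genes 7 were higher and none lower under both scalings. The share that was higher was close to that of all genes (7.18%), whereas 10.9% of all genes were lower. The median difference was 0.14, or 0.0017 after quantile normalization. At the 75th percentile 61 of the 80 lay above 0, against 11236 of all 25101 genes. At the 75th percentile 12 were higher, 5 of 37 in complex I, 2 of 9 in complex III, 3 of 14 in complex IV, 2 of 15 in complex V and 0 of 4 in complex II. Ndufb3 (complex I) at 0.88 ± 0.12, Cox8a at 0.84 ± 0.13 and Cox7c at 0.74 ± 0.13 (both complex IV) were the highest of them. In suspended mice 23 of the 80 were higher and 0 lower at the 75th percentile. Over all 25101 genes 2816 were higher there and 3859 lower. Of 25 genes of the citrate cycle and pyruvate dehydrogenase 5 were higher and 1 lower. Idh2, mitochondrial isocitrate dehydrogenase, read 3.15 to 4.42 in soleus and 1.62 to 2.64 in gastrocnemius, a difference of 1.69 ± 0.23. Pdk4 and Pdk1, kinases that switch pyruvate dehydrogenase off, were higher by 1.20 ± 0.19 and 0.89 ± 0.16, although a dimmer Pdk1 probe gave 0.27. Pdp1, the phosphatase that switches pyruvate dehydrogenase on, was lower at -0.72 ± 0.12.

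Among 44 regulators of fibre type, 8 were higher and 9 lower under both scalings, and 5 of the 9 were lower against the spike-ins. Esrrb, an orphan nuclear receptor of oxidative metabolism, read -0.56 to -0.37 in soleus and -2.08 to -1.49 in gastrocnemius, a difference of 1.41 ± 0.13, although its other probe gave -0.37. Prox1 (1.13 ± 0.13) and Tead1 (0.92 ± 0.14), transcription factors tied to the slow programme, were higher, and each also had a probe below 0. Sox6, a repressor of slow fibre genes, read 1.24, 0.58, 0.84, 0.56 and 1.32 in soleus and 1.78 to 2.45 in gastrocnemius, a difference of -1.28 ± 0.21, although another probe gave 0.21. Mafa (-1.74 ± 0.15), a factor of the type IIB programme, and Eya4 (-1.49 ± 0.23, but -0.42 by another probe), a cofactor of homeobox factors, were lower. Ppargc1a, the coactivator of mitochondrial genes, did not pass at -0.28 ± 0.25, with soleus arrays from 0.43 to 1.96.

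Genes listed as limb position factors also differed, 7 higher and 7 lower of 39 under both scalings. Over all genes the shares were 7.18% higher and 10.9% lower. Hoxd11, a homeobox gene of the middle and distal limb, read -3.44 to -4.74 in soleus and -2.34 to -1.97 in gastrocnemius, a difference of -2.12 ± 0.21. Only 2 of 5 soleus arrays had it well above background. En1 was lower at -0.92 ± 0.12, and Pitx3 was higher by 0.70 ± 0.12. Hoxd11, En1 and Pitx3 kept the direction in suspended animals, at -2.02, -0.71 and 0.51. Hoxd4 did not, at 0.69 ± 0.15 in controls and -0.20 in suspended mice, where it did not pass.

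Among the growth genes, Mss51 and Mstn were the furthest apart. Mss51, a muscle gene whose transcript is known to fall when myostatin is blocked, read 2.09, -0.85, -1.38, 1.14 and -1.11 in soleus and 5.92, 3.90, 5.38, 5.31 and 5.29 in gastrocnemius. Soleus 1 and 4 were the highest of the soleus arrays, the same 2 that were high in Myh4, and no array overlapped. The difference was -5.18 ± 0.40 (adjusted p = 0.000223). Mstn, myostatin itself, a secreted brake on muscle growth, read -1.58, -2.50, -2.87, -1.54 and -2.62 in soleus and 1.35, 1.32, 1.59, 1.73 and 1.62 in gastrocnemius, a difference of -3.75 ± 0.22 (adjusted p = 7.65e-05). Its receptor Acvr1b was lower at -1.05 ± 0.15, and Grb10, an adaptor that restrains insulin signalling, was higher by 0.94 ± 0.14. Another probe of each went the other way, at 0.26 for Acvr1b and -0.41 for Grb10. Over the 34 measured growth genes 2 were higher and 5 lower under both scalings, so the list as a whole was near the background.

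**Figure D4:**
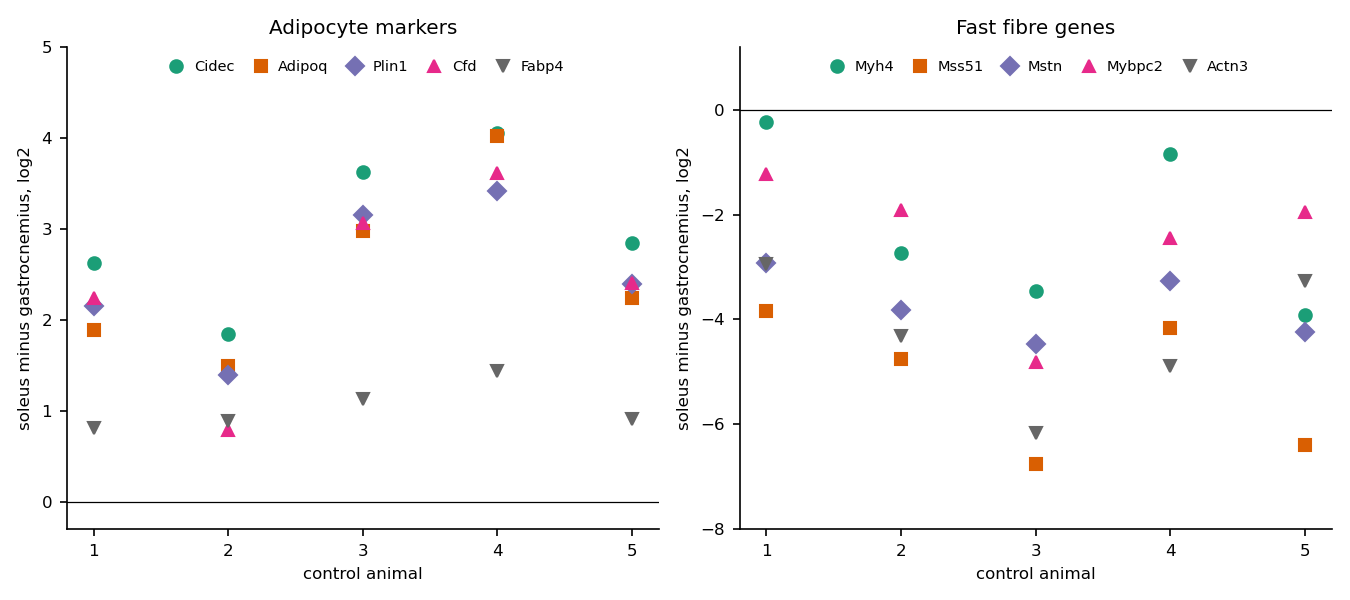
Within-animal difference (soleus minus gastrocnemius, log2) of fast-fibre genes and of adipocyte genes in the 5 control mice, 1 point per animal. Mss51 runs from -6.76 to -3.83 and Myh4 from -3.92 to -0.24, while Cidec runs from 1.85 to 4.05 with animal 4 the highest.

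At the membrane, 4 of 30 genes of the neuromuscular junction and excitability were higher and 9 lower under both scalings, 3 of the 9 also against the spike-ins. Subunits of the sodium pump moved in opposite directions. Atp1b2 read -1.42 to -0.62 in soleus and 0.31 to 1.66 in gastrocnemius, a difference of -2.37 ± 0.27, whereas Atp1b1 was higher by 0.72 ± 0.14. The fast potassium channels Kcnc4 and Kcnc1 were lower at -1.55 ± 0.24 and -1.27 ± 0.16. Chrna1, the alpha subunit of the acetylcholine receptor, was higher by 0.83 ± 0.15, with 2.60 to 3.29 in soleus and 1.95 to 2.42 in gastrocnemius.

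Stress and turnover genes gave smaller differences. Of 29 heat shock genes 5 were higher and none lower under both scalings, among them the small heat shock proteins Hspb6 (0.82 ± 0.15) and Cryab (0.82), and Hspa1a (1.36 ± 0.19), which may share signal with its near-identical copy Hspa1b and whose other probes ran down to -0.63. Of 28 ubiquitin ligase and atrophy genes 5 were higher and 4 lower, with a median of -0.19 that was 0.084 with scan day as a block. Fbxo32 (atrogin-1) was higher by 1.10 ± 0.17, with 2.59 to 3.45 in soleus and 1.06 to 2.22 in gastrocnemius. Klhl31 and Fbxo40 were lower at -1.27 ± 0.21 and -0.86 ± 0.22, the latter not passing without animal 1, 2 or 4 (adjusted p up to 0.0674). Dimmer probes gave -0.51 for Klhl31 and -0.55 for Fbxo40. Of 31 oxygen and antioxidant genes 6 were higher and 2 lower. Catalase (Cat) was higher by 1.12 ± 0.13 and Nos1, the neuronal nitric oxide synthase of the fibre membrane, was lower at -1.77 ± 0.20. A dimmer Nos1 probe gave -0.77. Myoglobin (Mb) passed at the 75th percentile only, at 0.46 ± 0.12, with adjusted p = 0.0812 after quantile normalization.

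Of 13 genes of polyamines and carnosine 3 were lower and none higher under both scalings, 2 of the 3 also against the spike-ins. The list's median was -0.26, and 0.012 with scan day as a block. Amd1, which makes the aminopropyl donor for polyamines, read 3.54, 3.11, 2.66, 3.07 and 2.98 in soleus and 5.16, 5.17, 5.09, 6.09 and 5.11 in gastrocnemius, a difference of -2.25 ± 0.19, and its probe may also read the copy Amd2. Smox, spermine oxidase, was lower at -2.47 ± 0.21 and Carns1, which makes carnosine, at -0.86 ± 0.12. Dimmer probes gave -1.43 for Amd1 and -1.34 for Smox.

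Among other cell types the fat cell markers stood out. Of 13 adipocyte genes measured 9 were higher and 1 lower in soleus under both scalings, with a median of 0.95. Their mean level ran from 1.84 to 2.85 on soleus arrays and from 1.02 to 1.31 on gastrocnemius arrays. Adipoq, the fat cell hormone adiponectin, read 2.26, 2.63, 3.73, 4.63 and 3.23 in soleus and 0.37, 1.14, 0.75, 0.61 and 0.99 in gastrocnemius. Soleus 4 was the highest and soleus 1 and 2 the lowest, and no soleus array overlapped. The difference was 2.52 ± 0.31 (adjusted p = 0.00113). Plin1 and Cidec, coats of the fat cell's lipid droplet, were higher by 2.50 ± 0.26 and 3.00 ± 0.28, and Fabp4, Retn, Lep and Pparg by 1.03, 0.95, 0.83 and 0.84.

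The size of the fat signal differed between mice. Within animals Adipoq differed by 1.89, 1.49, 2.98, 4.02 and 2.24, and Plin1 by 2.15, 1.39, 3.15, 3.42 and 2.39. Animal 4 was at the top and animal 2 at the bottom for both. The list's median was 0.75 without animal 4. Over animals 1 and 2 alone, the ones with the lowest list medians, it was 0.61, in a fit that was not planned. Cfd (adipsin), also a member of the list, was higher by 2.42 ± 0.33. Outside the list, the fat-linked Pck1 and Hp (haptoglobin) were higher by 2.70 ± 0.30 and 3.16 ± 0.39. Ucp1, the uncoupling protein of brown fat, was the 1 list member that was lower, at -1.40 ± 0.14, and hormone-sensitive lipase Lipe did not pass at 0.12.

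Vessel markers were higher by less. Of 18 endothelial genes 6 were higher and none lower under both scalings, with a median of 0.33. Ptprb, a phosphatase of the vessel lining, read 3.05 to 3.50 in soleus and 2.04 to 2.33 in gastrocnemius, a difference of 1.12 ± 0.12. Vwf (0.66 ± 0.14) and Plvap (0.71 ± 0.18) also passed, with soleus 2 the lowest soleus array for both. Other probes gave 0.11 for Ptprb and -0.51 for Vwf, so these values hold for 1 probe each. Of 4 lymphatic vessel genes Pdpn (-0.70) was lower at the 75th percentile and none passed under both scalings. Of 15 smooth muscle and pericyte genes 2 were higher, among them the pericyte potassium channel gene Kcnj8 at 0.60 ± 0.15. Satellite cells, the stem cells of muscle, gave 3 of 10 higher: Heyl (0.83), Calcr (0.47) and Fgfr4 (0.45), of which Heyl and Fgfr4 also had a probe below 0, at -0.27 and -0.51.

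Connective tissue was mixed. Of 44 collagen and matrix genes 5 were higher and 1 lower under both scalings, with Postn, periostin, at 3.20 to 4.11 in soleus and 2.58 to 2.96 in gastrocnemius and higher by 1.05 ± 0.16, or 0.21 by its other probe. Tendon markers gave 3 of 13 higher, including Cilp2 (0.64) and Mkx (0.59), and the list's median of 0.38 became -0.11 with scan day as a block, where Cilp2 was at -0.0066 and Mkx at -0.19. Fibroblast markers gave 1 higher (Mfap4, 0.77) and 1 lower (Clec3b, -0.62) of 16. Cartilage and bone markers gave 1 lower of 8, Sox9 at -0.67, which the mean of its probes placed at 0.011. Of 8 epidermis and 10 antigen-presenting cell markers limma passed 0 at the 75th percentile, with 2 and 1 at an unadjusted p below 0.05, and 2 and 1 passed after quantile normalization.

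Few genes of the nerve and blood cell lists passed, at shares that were mostly near those of all genes (7.18% higher, 10.9% lower). Of 16 Schwann cell and nerve genes 2 were lower and none higher under both scalings, among them Prx, periaxin of myelinating Schwann cells (-0.77 ± 0.21). Soleus 5 was low in Mbp, a myelin gene, at -0.14 beside 2.44 to 3.04 on the other 4 soleus arrays. The mean level of the list ran from -0.99 to 0.09 in soleus and from -0.19 to 0.26 in gastrocnemius, and the list's median of -0.20 was 0.14 without animal 5. Macrophage markers gave 2 of 16 higher, Cd163 (0.77) and Lyve1 (0.75, with another probe at -0.52), and mast cells 1 of 7, Mcpt4 (0.73). The small differences of Plvap, Kcnj8, Calcr, Fgfr4, Cilp2, Clec3b, Prx, Cd163, Lyve1 and Mcpt4 no longer passed without animal 1, with adjusted p from 0.0553 to 0.142. Lymphocyte markers gave 1 of 13 lower, Cd2 (-0.96), neutrophils 2 of 8, Camp (-0.77) and Retnlg (-0.63), and erythroid markers 1 of 7, Epb42 (-0.96, or -0.12 by its other probe). The lower values of these nerve and blood cell genes were all smaller than the spike-in shift.

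Some of the genes furthest apart stood in no list. Cidea, a lipid droplet protein, was higher by 1.86 ± 0.14, and Ift81, of the cilium transport complex, by 1.92 ± 0.14. Nnat, neuronatin, was higher by 2.61 ± 0.64, with gastrocnemius 3 far below its group, and it did not pass without animal 5. On the lower side stood Cdh4, R-cadherin (-3.61 ± 0.40), Lrp2bp (-2.76 ± 0.14), Ighm, the heavy chain of immunoglobulin M (-2.69 ± 0.26), Plcd4, a phospholipase C (-2.57 ± 0.24), and Aimp2, a scaffold of tRNA synthetases (-2.57 ± 0.18). Dimmer probes gave -0.18 for Cdh4, -0.29 for Lrp2bp and -0.22 for Ighm, so their size holds for 1 probe only. Aimp2 read -0.99 to -0.41 in soleus and 1.61 to 2.34 in gastrocnemius. Pcdhga12 and 2510042H12Rik were not well above background on any soleus array. Against the lowest signal well above background they were at least 2.05-fold and at least 3.04-fold lower there, with adjusted p = 0.000209 and 0.000122.

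The same contrast was measured in the 5 suspended mice, which share no array with the controls. There 6675 genes (26.6%) passed. Of the 1076 genes at least 2-fold apart in controls 1063, or 98.79%, had the same direction and 918, or 85.32%, also passed. Sln was higher by 3.22, Tnni1 by 3.35 and Tnnc1 by 2.94, while Mss51 was lower at -4.95, Mstn at -3.05 and Actn3 at -3.44. Adipoq was higher by 1.88 and Cidec by 2.40, and all 11 adipocyte genes that passed in controls kept their direction. Myh4, at -1.96 with adjusted p = 0.0681, did not pass there.

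**Figure D5:**
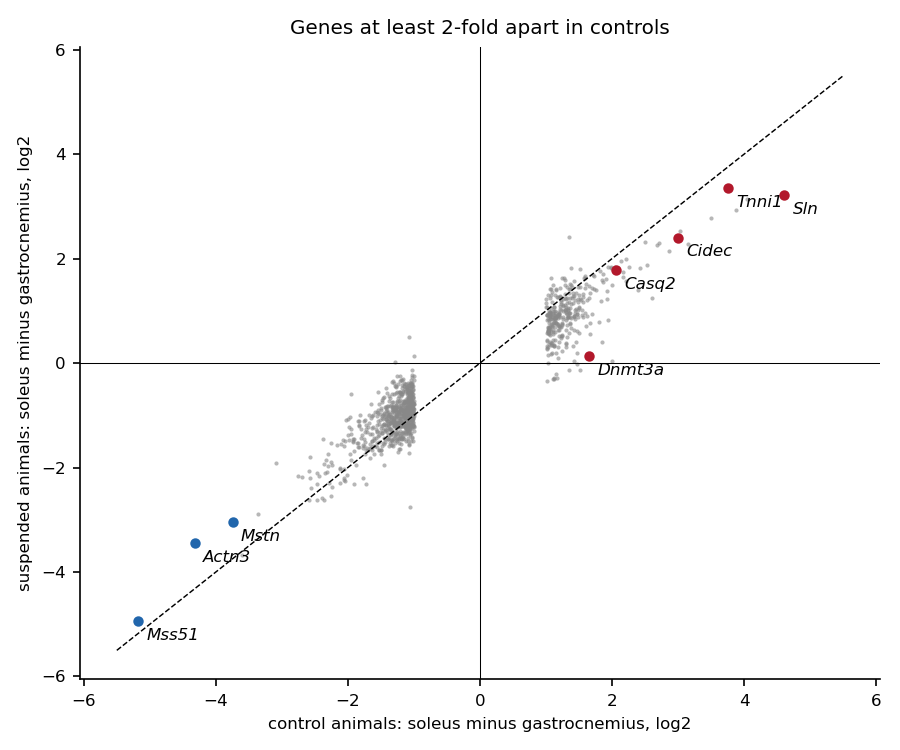
Log2 difference (soleus minus gastrocnemius) in suspended mice on the y axis against that in control mice on the x axis, 1 point for each of the 1076 genes at least 2-fold apart in controls, with a dashed line of equal values. Of these 1063 have the same sign on both axes, such as Mss51 at -5.18 and -4.95, and Dnmt3a lies far from the line at 1.66 and 0.13.

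Suspended animals also hold both muscles on scan day 2, with 3 soleus and 4 gastrocnemius arrays. These came from animals 1 to 3 and animals 2 to 5. They were fitted without the animal as a block, as was the fit of all 20 arrays below. Within that day 1063 of the 1076 genes kept the direction and 687 (63.85%) passed. Suspended soleus 1 weighed on these values. Without it, in a fit that was not planned, 1059 kept the direction, and calls over all genes rose from 5237 to 6690. Each gene named in the paragraph above was then further apart. Sln moved from 2.93 to 4.21, Mss51 from -4.79 to -5.90, Actn3 from -3.23 to -4.78 and Adipoq from 2.14 to 3.04. A fit of all 20 arrays with scan day as a block, in which day and muscle are separated through 1 gastrocnemius array of day 1, kept the direction for 1067 and the call for 441. Sln was 5.90 there (adjusted p = 0.009), Tnni1 3.25 (0.0373), Mss51 -5.00 (0.0522), Mstn -3.35 (0.0575) and Adipoq 2.57 (0.137). These 5 genes kept their direction and most of their size, and the adjusted p of the last 3 was above 0.05. Of the 11 adipocyte genes that passed in controls 7 passed within day 2 and 1 in that fit.

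The muscle difference itself was tested between control and suspended mice, and 1 gene of 25101 (0.00398%) passed, with 1428 at an unadjusted p below 0.05 by limma. Scan day moved with this contrast too, since all control gastrocnemius arrays were of day 1 and 4 of the 5 suspended ones of day 2, and its part in the result was not tested. This gene was Dnmt3a, a DNA methyltransferase. It read 1.91, 1.84, 1.88, 1.57 and 1.81 in control soleus and 0.11, 0.19, 0.14, 0.23 and 0.05 in control gastrocnemius, so the muscles stood well apart. Its muscle difference was 1.66 ± 0.13 in controls and 0.13 in suspended mice, and the change between them was -1.53 ± 0.18 (adjusted p = 0.0471). Its 3 probes ran from 0.11 to 1.66 in controls, so the value rests on 1 probe, and the mean of its probes gave 0.63.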

How the data were processed

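RNA of each muscle was read on one-colour Agilent mouse arrays, 5 per muscle, with a spike-in mix added per the labels. The authors deposited linear spot intensity written by Agilent Feature Extraction 9.1.3.1 (file headers), with background already corrected and no scaling between arrays. The deposited series table, on a log2 scale, matched the scanner values scaled to the 75th percentile to within 0.01 per spot and served as an alternative.

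Of 45018 spots per array 43379 were not controls. Signals, without spots marked as uneven, were divided by the array's 75th percentile and put on a log2 scale, and repeat spots were averaged. Probes well above background on 4 or more of the 5 arrays of a muscle were used (37039 of 41174), and the brightest kept probe stood for its gene, leaving 25101 genes. Names came from accessions (24913 spots), current (6857) or older symbols (3127), or the file (8482). The fit was limma 3.58.1 in R 4.3.3 with the animal as a fixed block, since the labels tie both muscles to 1 animal. Deviations from the group means correlated by 0.12, 0.05, 0.03, -0.03 and -0.35 for animals 1 to 5. The fit of the control arrays with the animal as a block was tested on simulated data. No such test is reported for the other fits, among them the test between conditions and those with scan day or slide as a block. Figures used matplotlib 3.10.9.

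The comparison and the 19 pathway and 16 cell type lists were chosen with earlier results of these data known. Named genes (182) were the 15 highest and 15 lowest with no overlap, all sarcomere list members, 8 fibre genes, up to 3 genes at each end of each other list and the 6 lowest p in each direction outside the lists; the other genes named as examples from the lists, and Lipe, Mbp and Ppargc1a, were chosen after their values were seen. Alternatives covered scaling, background correction, dim probes, probe averaging, the block and leaving out each animal. The number of arrays limits the precision, and 75th percentiles ran from 463.3 to 630.2. Between 80.75% and 93.08% of spots were well above background. A few list members that count in the totals are not reported here by name.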

Additional observations from a re-analysis of the deposited data

Results flagged for a closer look

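Of 364 groups of 5 arrays checked for named genes, 27 held 1 array far from the other 4, where chance gives about 1 in 20. Levels are log2 intensity relative to the 75th percentile. Soleus 2 held 7 of them: Ndufb3 read 6.59 there, Pdp1 0.59, Fgfr4 0.11, Plvap 1.00, Vwf 2.42, Cilp2 2.17 and H2-Ab1 -1.24, which was the highest of its group for Ndufb3 and the lowest for the other 6. Gastrocnemius 3 held 5, with Sln at 3.04, Tpm3 at 2.64, Tnni1 at 4.18 and Postn at 2.96 above the other 4 arrays and Nnat at -5.72 below them. Sln, Tpm3 and Tnni1 are slow-fibre genes, and each stayed below every soleus array.

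Gastrocnemius 5 was low for Atp2a1 (7.09), Kcnc4 (-0.35) and Fbxo40 (0.33) and high for Itga8 (-0.21). Gastrocnemius 4 was high for Smox (3.27) and Amd1 (6.09), both of polyamine metabolism, and low for Cldn19 (-2.76). Gastrocnemius 2 was low for Fbxo32 (1.06) and high for Timp1 (2.38). Soleus 1 was high for Smox (0.56), soleus 3 low for Mybpc2 (2.97), soleus 4 high for Col18a1 (3.35) and low for Dnmt3a (1.57), and soleus 5 low for Cox8a (4.48) and for the unnamed probe A_52_P480044 (-4.55).

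Dnmt3a also differed between conditions, since its soleus minus gastrocnemius difference changed by -1.53 from control to suspended mice.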

How the results depend on the processing

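The 6715 calls in controls became 22643 against the spike-ins, 10679 with slide as a random block, 1371 over all 20 arrays with scan day as a block, and 3532 to 6553 leaving out 1 animal (lowest without animal 1). Genes higher in soleus, 2430, became 22504, 4194 and 411 in those 3 fits, 4522 after median scaling, and 1050 to 2506 leaving out 1 animal (1050, 1509 and 1403 without animals 1, 3 and 4). Genes lower, 4285, became 139, 6485 and 960, 2855 after median scaling, and 2482 to 4047. At least 2-fold higher genes, 327, became 12560 against the spike-ins and 495 after median scaling, and 2-fold lower genes, 749, became 41 and 443, 418 after quantile normalization and 191 after normexp. In suspended mice 6675 calls became 3032 to 6098 leaving out 1 animal (3544, 3813 and 3032 without animals 2, 3 and 4).

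More genes passed with no replicate block, 8079 against 6715 with it, and 6499 passed in both fits. The test between conditions gave 2 genes in place of 1. Slide or scan day as a fixed block within the controls could not be fitted, because no slide or day holds both muscles.

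With scan day as a block 112 of the 182 named genes lost or missed the threshold and 3 changed sign, namely Cilp2 (-0.0066), Mkx (-0.19) and Thbs2 (-0.083), and so did the medians of the polyamine (0.012), tendon (-0.11), epidermis (-0.87) and ubiquitin ligase (0.084) lists; those of the citrate cycle and fibre regulator lists, near 0 in both fits, also crossed it (-0.0093 and -0.048). The mean of a gene's probes turned Myl1 (-0.47), Oaz2 (-0.14) and Sox9 (0.011). Quantile normalization took 21 named genes below the threshold and brought 5 above it. Against the spike-ins 28 of the 168 named genes that passed changed sign, each of them lower in soleus. The causes were not tested. Direction is least certain for dim genes, whose split moved most with the scaling.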
